A study of Mus musculus with 13 samples.

Results

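The 9 genes examined here, in mouse whole brain, are genes whose mRNAs carry listed A-to-I recoding sites and that do not encode ion channels or receptors: Cadps, Cyfip2, Flna, Azin1, Copa, Son, Blcap, Igfbp7 and Neil1. They were chosen by name, and all 9 were found among the 54307 entries of the gene count table. Their editing sites were the positions inside their coding sequence, on the strand of the gene and with A as the transcript base, in the authors' tables of listed editing sites. This gave 60 sites of the 421 coding sites in all genes, of which 40 change an amino acid and 20 are synonymous. Son held 27 sites, Cadps 15, Cyfip2 4, Blcap and Neil1 3 each, and Flna, Azin1, Copa and Igfbp7 2 each.

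RNA of the whole brain came from 13 C57BL/6 mice of 4 Adar genotypes, with 1 male in each genotype. P195A/+ mice (n = 3) carried P195A on 1 allele beside a wild-type allele and were 43 days old. P195A/P195A mice (n = 4) carried P195A on both alleles and were 42 or 48 days old. P195A/- mice (n = 3) were 42 days old; the short genotype label, read as P195A opposite a null allele, was used, while the longer label writes P195A on both sides and adds an AdarKO/+ term that the labels do not explain. Wild-type mice (n = 3) were 48, 48 and 74 days old. All P195A/+ and P195A/- mice were younger than all wild-type mice, so age and genotype cannot be told apart in those comparisons. No P195A/P195A mouse was older than any wild-type mouse, so age is only partly separated from genotype there. The 74-day mouse was also the only wild-type male. P195A is a change in the Za domain of ADAR1 p150, which binds left-handed nucleic acids, and the study asked what phenotype the allele has in mice. The labels do not say how the animals were related. Library totals were 13539000 to 22399000 estimated gene counts, and the RNA p-values below measure the spread between these animals. Editing p-values, such as that of Blcap Q5R below, match a normal tail of the log2 odds ratio over its SE. They thus rest largely on a spread shared by all sites, not on that of each site's own animals. All 5 neuronal markers (Snap25, Syt1, Rbfox3, Tubb3, Nefl) were detected in each genotype, with summed levels of 2646 to 3048 CPM (TMM-scaled counts relative to library size) in P195A/+, 2665 to 3163 CPM in P195A/P195A, 2693 to 3336 CPM in P195A/- and 3081 to 3267 CPM in wild-type brains.

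ADAR enzymes deaminate adenosine to inosine in double-stranded RNA, and inosine is read as guanosine by the ribosome and by reverse transcriptase. A recoding site usually sits in an exon that pairs with a nearby stretch of the same transcript, often intronic, so that editing precedes splicing. In the literature the sites of Cyfip2 and Flna are attributed mainly to ADAR2 (Adarb1), which is abundant in brain, and those of Azin1 and Neil1 mainly to ADAR1 (Adar). ADAR enzymes are known to disfavour a G directly before the edited A and to favour a G after it.

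The sequences around the sites that carry the results are given from the GENCODE M21 transcripts (GRCm38), 5′ to 3′ on the strand of the gene, with each site named on the line in capitals, to show which edited bases sit next to each other. Listed sites under 1% that fall in the same stretches, 3 beside Cadps E1258G and 1 beside Son E421G, are in lower case. In Blcap, a small membrane protein, and in Flna, the actin crosslinker filamin A, pairs of amino acid changes lie close enough to share a read.
Blcap Y2C and Q5R, chr2:157558128-157558157, minus strand: gatcatgtAttgcctccAgtggctgctgcc
Blcap K15R, chr2:157558096-157558124, minus strand: cctcctcatccccaAgcccctcaaccccg
Flna S2331G and Q2333R, chromosome X, minus strand, across an exon junction: ttactgtttctAgtcttcAggagtcagggt
Cyfip2 K320E and K320R, chr11:46272628-46272657, minus strand: tggccagatacattAAgaccagtgctcact
Cadps E1258G, chr14:12411568-12411596, minus strand: tgataaggtcaatgAggagatgtatatag
Cadps S89G, chr14:12822460-12822488, minus strand: gcggccggccttccAgccctagcccgtcg
Copa I164V, chromosome 1, plus strand, across an exon junction: tccgcgtttgggatAtttctggtctaagg
Azin1 codon 366 and S367G, chr15:38491598-38491627, minus strand: gatcaaattgtggaAAgctgtcttcttcct
Son codons 568 and 573, T574A, R575G and codon 576, chr16:91656067-91656096, plus strand: gtcAgggctgccttcggcAActAgggcAct
Son T417A, codon 418 and E421G, chr16:91655607-91655636, plus strand: ccctttctAccccAgtgcctgAgttgccag
Igfbp7 K95R, chr5:77407717-77407745, minus strand: ccgcaagaggcggaAgggtaaagccgggg
Igfbp7 R78G, chr5:77407769-77407797, minus strand: gcggcgcggccggcAgggggcactgcgcg
Neil1 K242R and its codon's last base, chromosome 9, minus strand, across an exon junction: tcagctggggggcaAAggctatgggccaga

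The editing level, G reads as a percentage of A plus G reads, spanned the whole scale. Pooled over the libraries that list a site, 18 of the 60 sites were at 5% or more, 9 at 1 to 5% and 33 under 1%, and 6 of the last had no edited read in 1363 to 6909 reads. The highest pooled levels were 85.1% at Igfbp7 R78G, 82.0% at Igfbp7 K95R, 78.8% at Cyfip2 K320E, 56.2% at Flna Q2333R and 43.0% at Son R575G. A G followed the edited A at 12 of the 18 sites at 5% or more, which is 66.7%, and at 15 of the 33 sites under 1%, which is 45.5%. A G preceded it at 2 of the 18 (11.1%) and at 7 of the 33 (21.2%). Over the 361 coding sites of other genes, a G preceded 6.25% of the 112 sites at 5% or more and 26.6% of the 192 sites under 1%. It followed 59.8% and 41.1% of these, but only 26.3% of the 57 sites of other genes at 1 to 5%. Of the 9 sites of the listed genes at 1 to 5%, a G followed 77.8% and preceded 0%. These shares are descriptions, and many sites of a gene share one stretch of RNA.

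Of the 60 sites, 26 entered a test in at least 1 comparison, each with at least 10 reads in every library and a pooled level of 1 to 99%. No site passed (edgeR quasi-likelihood test, adjusted p under 0.05). In P195A/+ against wild type 0 of 25 tested sites were called, beside 0.0143% of all 14019 sites, and 1 of 25 had an unadjusted p under 0.05, beside 6.06% of all sites. In P195A/P195A against wild type 0 of 23 were called, beside 0.208% of all sites, with 4 at an unadjusted p under 0.05, beside 7.99%. In P195A/- against wild type 0 of 24 were called, beside 0% of all sites, with 0 at an unadjusted p under 0.05, beside 4.01%. In P195A/- against P195A/P195A 0 of 23 were called, beside 0.0846% of all sites, with 3 at an unadjusted p under 0.05, beside 7.25%. With limma on log odds 0 of these sites were called, but so were 0 of all sites in each comparison, so that result adds no support. The 3 comparisons with wild type share the wild-type animals.

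Median log2 odds ratios of the tested sites against wild type were 0.29 for P195A/+, 0.18 for P195A/P195A and 0.23 for P195A/-, and -0.17 for P195A/- against P195A/P195A. Over all tested sites of the transcriptome the medians were 0.21, 0.16, 0.07 and -0.09 in the same order. In a simulation of P195A/P195A against wild type, a log2 odds shift of 2 was recovered at 11.7% of 94 changed sites, and a shift of -2 at 9.43% of 106. The changed sites were drawn from all tested sites, whose median depth was 24 reads, against 161 for the tested sites of the 9 genes. A missed call at low depth thus leaves room for sizeable differences. Recovery at the depth of the sites of these genes was not simulated separately.

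**Figure D1:**
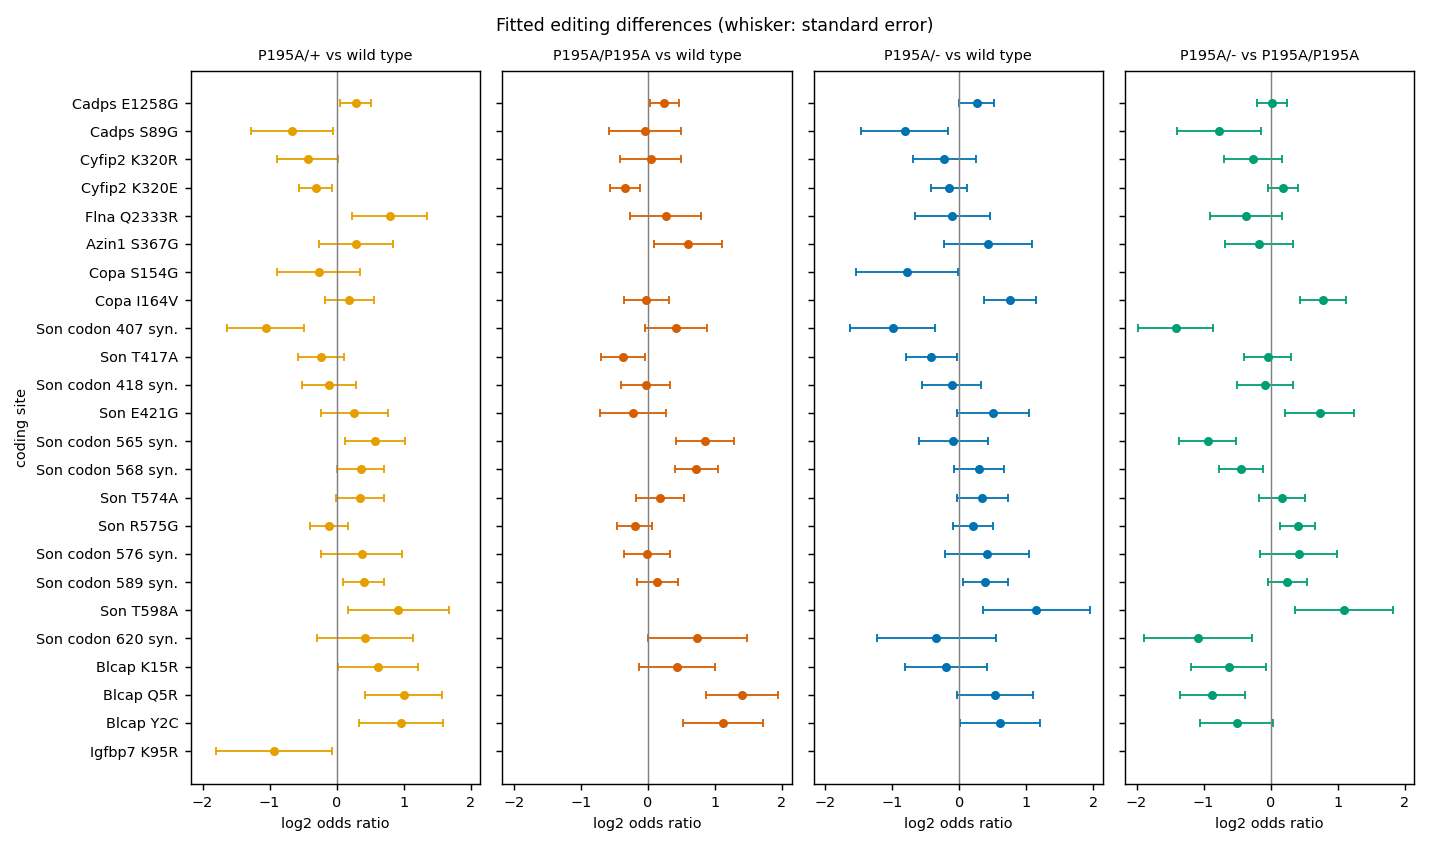
Fitted log2 odds ratios of 24 coding sites (rows) in the 4 comparisons (panels), with standard errors as whiskers. Flna S2331G, with no edited read in wild type, and Son codon 573, with a standard error above 1, are left out; positive values mean more editing in the genotype named first, and none of the values passed the test.

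Blcap, a small conserved membrane protein first named in bladder cancer, gave the widest difference in mean level among the tested sites, at Q5R. Its sites change codons 2, 5 and 15 in exon 2 of 2, at chromosome 2 positions 157558149, 157558140 and 157558110. Q5R was edited at 23.1%, 38.6% and 28.6% in P195A/+ brains, 38.7%, 34.5%, 34.8% and 39.3% in P195A/P195A brains, 21.4%, 13.5% and 33.3% in P195A/- brains, and 9.38%, 25.0% and 18.2% in wild-type brains, from 28 to 63 reads per library. Every P195A/P195A animal lay above every wild-type animal and above every P195A/- animal, while the other 2 P195A genotypes overlapped wild type. The mean of P195A/P195A was 36.8 ± 2.54%, against 17.5 ± 7.83% in wild type (SD, n = 4 and 3), 19.3 percentage points more; the log2 odds ratio was 1.41 with SE 0.54 (unadjusted p = 0.00908, adjusted p = 0.459, edgeR quasi-likelihood test). In P195A/- Q5R was 14.1 percentage points lower than in P195A/P195A (log2 odds ratio -0.87, SE 0.49, adjusted p = 0.704, edgeR).

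Y2C, which replaces the residue after the start methionine, was edited at 28.6%, 51.5% and 39.3% in P195A/+ animals, 42.9%, 37.5%, 42.9% and 47.6% in P195A/P195A animals, 31.4%, 25.9% and 42.9% in P195A/-, and 22.7%, 33.3% and 20.0% in wild type. All 4 P195A/P195A animals were again above the wild-type animals, by 17.4 percentage points on average (log2 odds ratio 1.12, SE 0.59, adjusted p = 0.639, edgeR). K15R averaged 22.9 ± 6.14% in P195A/+, 20.8 ± 4.61% in P195A/P195A, 13.02 ± 11.1% in P195A/- and 16.4 ± 5.29% in wild type, and these groups overlapped. Within animals the order was stable in part: Y2C exceeded Q5R in 13 of 13 libraries and Q5R exceeded K15R in 11 of 13. Y2C and Q5R lie in the same 30 bases printed above and share reads, so they are not independent measurements.

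**Figure D2:**
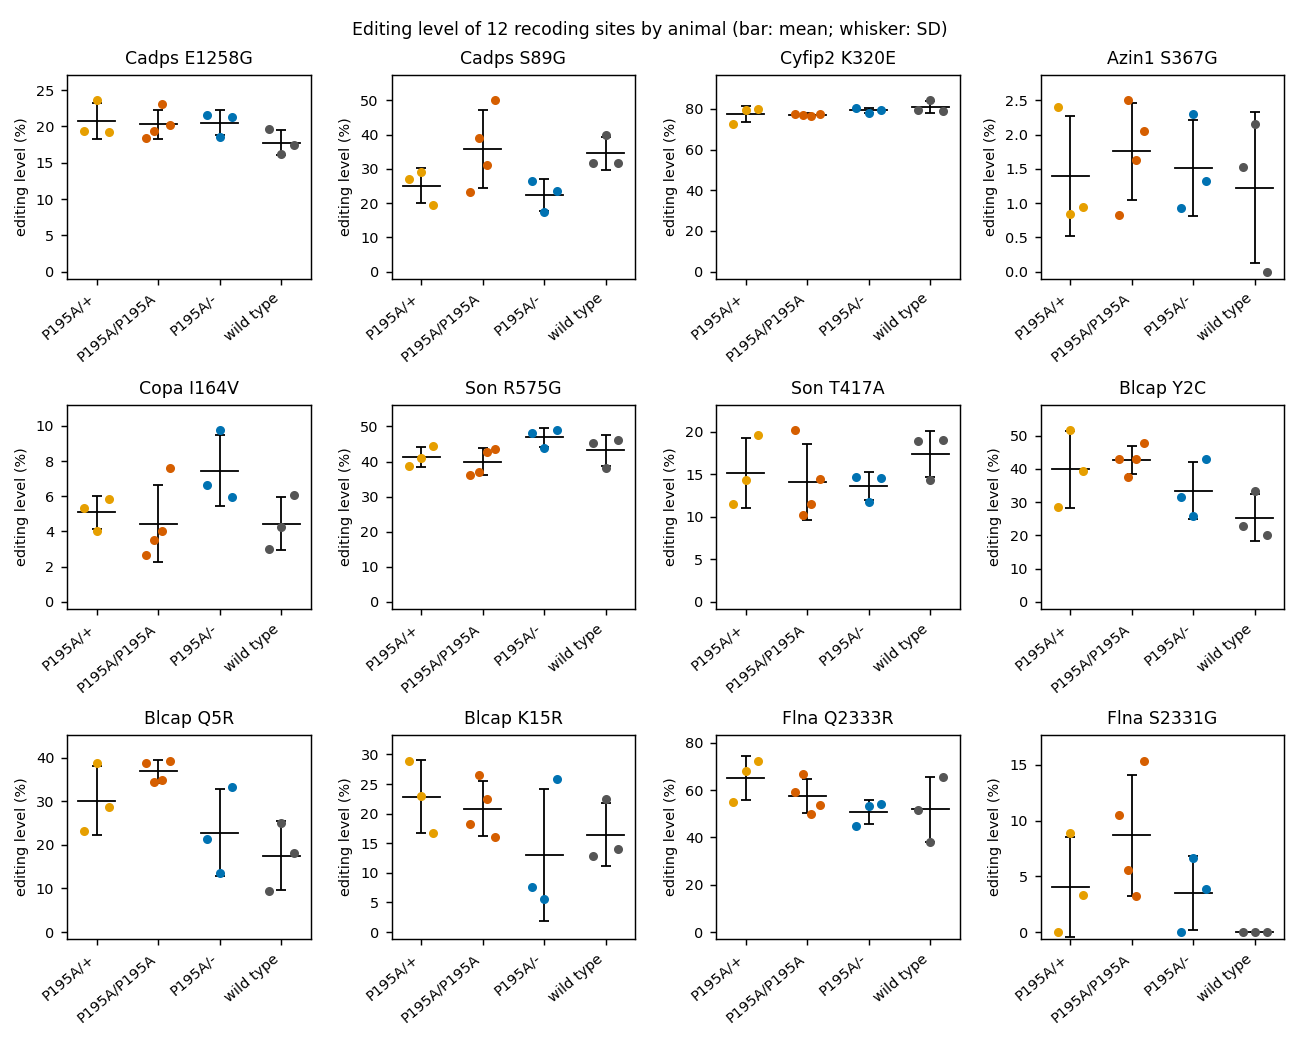
Editing level in percent (y axis, a scale for each panel) of 12 recoding sites in each animal, by genotype (x axis); points are animals, bars the group mean and whiskers the SD. Blcap Q5R lies between 34.5% and 39.3% in the 4 P195A/P195A animals and between 9.38% and 25.0% in wild type.

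Flna encodes filamin A, which crosslinks actin filaments. Its Q/R site, Q2333R (exon 41 of 46, chromosome X position 74226862), was edited at 54.8%, 68.2% and 72.4% in P195A/+ animals, 59.1%, 66.7%, 50.0% and 53.8% in P195A/P195A animals, 44.7%, 53.3% and 54.2% in P195A/-, and 51.7%, 38.2% and 65.7% in wild type. The groups overlapped in every comparison, and the fitted differences ranged from a log2 odds ratio of -0.37 (P195A/- against P195A/P195A) to 0.79 (P195A/+ against wild type; SE 0.56, adjusted p = 0.859, edgeR).

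S2331G, 7 bases upstream of Q2333R at position 74226869, is a minor site. Edited reads were 0 of 30, 4 of 45 and 1 of 30 in P195A/+, 2 of 19, 1 of 18, 1 of 31 and 4 of 26 in P195A/P195A, 0 of 32, 2 of 30 and 1 of 26 in P195A/-, and 0 of 29, 0 of 33 and 0 of 36 in wild type. Edited reads were thus seen in 4 of 4 P195A/P195A animals and in no wild-type animal. The pooled level was 8.51% in P195A/P195A, and 0 of 98 reads in wild type allow a level of up to 3.06% (3 counts over the group, counting error only). In P195A/+ the pooled level was 4.76%. Of the 8 edited reads in P195A/P195A 4 came from 1 animal, as did 4 of the 5 in P195A/+, so no fold is given for either. The unadjusted p was 0.00275 in P195A/P195A and 0.0242 in P195A/+ against wild type, with adjusted p = 0.308 and 0.797 (edgeR).

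Sites whose groups did not overlap were few. Their share was above that of all sites in some comparisons, as for the 4 of 23 below, and under it in others. In P195A/P195A against wild type 4 of 23 sites were higher in every P195A/P195A animal (Flna S2331G, Blcap Q5R and Y2C, Son codon 568), beside 5.55% of all sites, and 1 was lower (Cyfip2 K320E), beside 2.73%. In P195A/+ against wild type 0 of 25 were higher in every animal, beside 8.32% of all sites, and 1 of 25 was lower (Cadps S89G), beside 2.92%. In P195A/- against wild type 0 of 24 were higher, beside 5.45%, and 1 of 24 was lower (Cadps S89G), beside 3.69%. In P195A/- against P195A/P195A 2 of 23 were higher (Cyfip2 K320E, Son R575G), beside 2.81%, and 2 were lower (Blcap Q5R, Son codon 565), beside 4.56%. Named sites here were picked by this count after their values were seen, and none passed the test.

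Cyfip2 encodes a subunit of the WAVE regulatory complex, which controls branching of actin. Its K/E site K320E (exon 10 of 31, chromosome 11 position 46272643) was edited at 72.8%, 79.7% and 79.8% in P195A/+ animals, 77.7%, 77.1%, 76.5% and 77.7% in P195A/P195A animals, 80.6%, 78.1% and 79.5% in P195A/-, and 79.6%, 84.3% and 79.2% in wild type, from 231 to 490 reads. All P195A/P195A animals were slightly below all wild-type and all P195A/- animals. The mean was 77.2 ± 0.563% in P195A/P195A, against 81.0 ± 2.82% in wild type (SD, n = 4 and 3), and the log2 odds ratio -0.34 (SE 0.22, adjusted p = 0.739, edgeR). The middle base of the same codon, K320R, was edited at 0.606 to 2.36% over the 13 libraries, with groups that overlapped. S337G and Y366C, also listed in Cyfip2, had 1 edited read of 5708 and 0 of 4187.

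Cadps encodes CAPS1, which primes dense-core vesicles for release. Its E/G site E1258G (exon 27 of 29, chromosome 14 position 12411582) has a G on both sides and was edited at 19.4%, 23.6% and 19.3% in P195A/+ animals, 18.4%, 19.4%, 23.1% and 20.3% in P195A/P195A animals, 21.6%, 18.5% and 21.4% in P195A/-, and 19.6%, 16.2% and 17.5% in wild type. The P195A genotypes averaged 20.8%, 20.3% and 20.5% in that order, and wild type 17.8%, with overlapping animals. The log2 odds ratios against wild type were 0.28, 0.25 and 0.26 (SE 0.24, 0.21 and 0.26; adjusted p = 0.880, 0.822 and 1.00, edgeR). With 336 to 595 reads per library it was the most deeply read of the tested sites.

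S89G, in exon 1 of Cadps at position 12822474, was read 14 to 41 times per library. It was edited at 26.9%, 29.03% and 19.4% in P195A/+ animals, 23.3%, 39.1%, 31.0% and 50.0% in P195A/P195A animals, 26.5%, 17.4% and 23.5% in P195A/-, and 31.8%, 40% and 31.7% in wild type. All P195A/+ and all P195A/- animals were below the wild-type animals, whereas P195A/P195A animals overlapped each of the other genotypes. The differences were -9.38 percentage points in P195A/+ and -12.0 in P195A/- against wild type (log2 odds ratios -0.66 and -0.82, SE 0.61 and 0.65, adjusted p = 0.898 and 1.00, edgeR). The other 13 listed sites of Cadps, in exons 25 to 28, were at most 0.0892% when pooled over the libraries and at most 0.455% in a single library, and 4 of them had no edited read.

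Copa encodes the alpha subunit of the COPI coat of Golgi vesicles. I164V (exon 6 of 33, chromosome 1 position 172092348) was edited at 5.36%, 4.03% and 5.86% in P195A/+ animals, 2.67%, 3.50%, 4.01% and 7.59% in P195A/P195A animals, 6.63%, 9.74% and 5.98% in P195A/-, and 3.03%, 4.26% and 6.07% in wild type. P195A/- animals tended to the upper end, but 1 P195A/P195A and 1 wild-type animal lay among them. The mean was 7.45 ± 2.01% in P195A/-, against 4.44 ± 2.17% in P195A/P195A and 4.45 ± 1.53% in wild type. The log2 odds ratio of P195A/- was 0.78 against P195A/P195A (SE 0.34, unadjusted p = 0.0238, adjusted p = 0.633) and 0.76 against wild type (SE 0.39, adjusted p = 1.00, edgeR). S154G, 30 bases upstream, was tested in P195A/+ and P195A/- against wild type only, and was at 1.06% in P195A/+, 0.338% in P195A/P195A, 0.722% in P195A/- and 1.29% in wild type when pooled.

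Azin1 encodes antizyme inhibitor 1, which spares ornithine decarboxylase, the first enzyme of polyamine synthesis, from degradation. S367G (exon 11 of 12, chromosome 15 position 38491612) was rarely edited: the pooled levels were 12 of 850 reads (1.41%) in P195A/+, 18 of 1031 (1.75%) in P195A/P195A, 9 of 584 (1.54%) in P195A/- and 10 of 875 (1.14%) in wild type. The genotypes overlapped, and 1 wild-type animal had 0 edited reads of 334. The adjacent A, the last base of codon 366, was edited at 0.666% over all libraries and did not enter a test.

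Son encodes a nuclear speckle protein needed for splicing. All 27 of its listed sites lie in exon 3 of 12, in 2 stretches, 15 sites in codons 361 to 423 and 12 sites in codons 565 to 620. R575G (chromosome 16 position 91656089) was the highest Son site in 13 of 13 libraries. It was edited at 38.7%, 40.9% and 44.4% in P195A/+ animals, 36.0%, 37.1%, 42.8% and 43.6% in P195A/P195A animals, 48.1%, 43.9% and 48.9% in P195A/-, and 45.4%, 38.2% and 46.2% in wild type. All P195A/- animals were above all P195A/P195A animals, by 7.08 percentage points on average (log2 odds ratio 0.40, SE 0.26, adjusted p = 0.770, edgeR), and both genotypes overlapped wild type.

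Around R575G the levels dropped sharply from base to base. T574A, 3 bases upstream, averaged 8.90 ± 1.18% in P195A/+, 7.79 ± 2.09% in P195A/P195A, 9.18 ± 4.74% in P195A/- and 7.06 ± 1.16% in wild type. The synonymous site of codon 589, 44 bases downstream, was the second highest, with 21.5 ± 2.74% in P195A/+, 18.7 ± 4.33% in P195A/P195A, 21.4 ± 3.73% in P195A/- and 17.2 ± 3.92% in wild type (SD). Codon 568 averaged 10.3 ± 1.54% in P195A/+, 12.8 ± 1.43% in P195A/P195A, 9.92 ± 1.52% in P195A/- and 8.13 ± 2.88% in wild type. At codon 568 the 4 P195A/P195A animals (11.1 to 14.2%) were above the 3 wild-type animals (4.94 to 10.5%), with a log2 odds ratio of 0.73 (SE 0.33, unadjusted p = 0.0273, adjusted p = 0.555, edgeR).

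Codon 565 averaged 4.79% in P195A/+, 5.83% in P195A/P195A, 3.10% in P195A/- and 3.29% in wild type, and all P195A/- animals were below all P195A/P195A animals (log2 odds ratio -0.94, SE 0.43, adjusted p = 0.646, edgeR). In the upstream stretch T417A averaged 15.2 ± 4.12% in P195A/+, 14.1 ± 4.44% in P195A/P195A, 13.7 ± 1.64% in P195A/- and 17.4 ± 2.69% in wild type, with overlapping animals. Codon 407 averaged 1.46% in P195A/+, 4.06% in P195A/P195A, 1.49% in P195A/- and 3.12% in wild type, and its difference between P195A/- and P195A/P195A had the smallest unadjusted p of that comparison among these genes (log2 odds ratio -1.42, SE 0.56, unadjusted p = 0.0111, adjusted p = 0.539, edgeR). Codon 418 (8.32% over all libraries), E421G (5.04%), codon 620 (2.48%), codon 576 (1.73%), T598A (1.32%) and codon 573 (0.932%) were the other tested sites, with overlapping groups. The remaining 14 Son sites were under 1% when pooled.

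**Figure D3:**
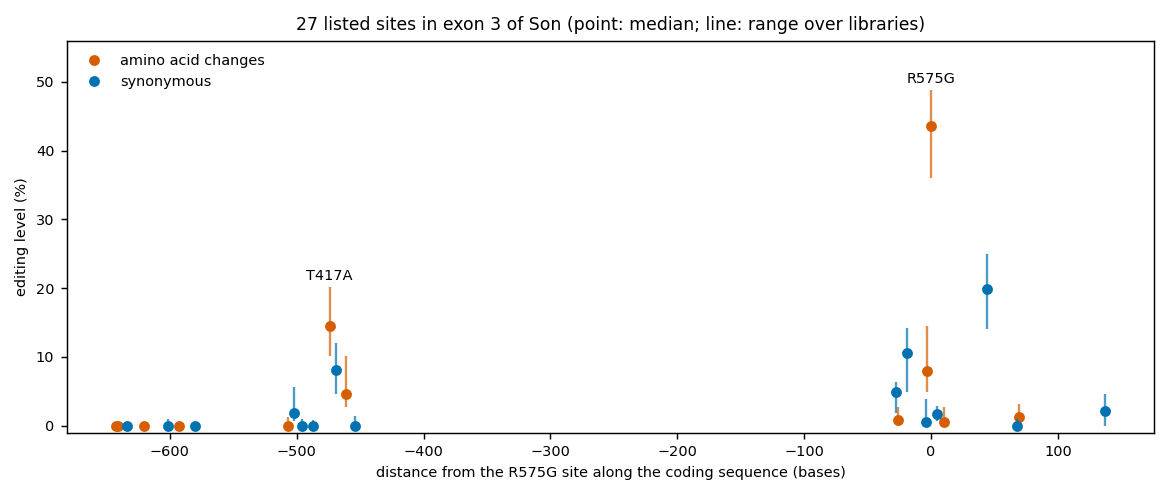
Editing level in percent (y axis) of the 27 listed Son sites against their distance from R575G along the coding sequence in bases (x axis); points are medians and lines the range over the libraries, in orange for sites that change an amino acid and in blue for synonymous ones. The sites form 2 stretches, led by T417A and R575G.

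Igfbp7 and Neil1 were thinly read. Igfbp7 encodes a secreted protein of the IGF-binding family made largely by vascular cells. At K95R (exon 1 of 6, chromosome 5 position 77407731) 21 of 26, 17 of 20 and 20 of 28 reads were edited in P195A/+, 7 of 9, 8 of 11, 18 of 20 and 3 of 4 in P195A/P195A, 4 of 6, 12 of 15 and 6 of 6 in P195A/-, and 14 of 15, 12 of 13 and 17 of 21 in wild type. The groups overlapped; pooled levels were 78.4%, 81.8% and 81.5% in the P195A genotypes in that order and 87.8% in wild type. Only P195A/+ against wild type had enough reads for the test (log2 odds ratio -0.94, SE 0.87, adjusted p = 0.898, edgeR). R78G (position 77407783) was pooled at 84.4% in P195A/+, 73.1% in P195A/P195A and 96.6% in wild type, from 26 to 32 reads per genotype and 3 to 12 per library; 1 P195A/P195A library had 0 of 3 reads edited.

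Neil1 encodes a DNA glycosylase that removes oxidised bases, and its K242R change sits in the lesion recognition loop. At K242R (exon 5 of 9, chromosome 9 position 57144308) edited reads were 0 of 11, 2 of 17 and 0 of 16 in P195A/+, 1 of 6, 3 of 13, 4 of 14 and 2 of 9 in P195A/P195A, 3 of 15, 0 of 14 and 0 of 12 in P195A/-, and 1 of 10, 0 of 8 and 0 of 17 in wild type. The 4 P195A/P195A animals, at 16.7 to 28.6%, lay above the wild-type animals, with at most 1 edited read of 10, and overlapped P195A/-. The separation from wild type rests on single reads, 1 of 6 in the lowest P195A/P195A animal and 1 of 10 in the highest wild-type animal. How many of all sites separate in this way at such depth was not counted. Pooled, 10 of 42 reads were edited in P195A/P195A (23.8%, 95% Wilson interval 13.5 to 38.5%), 2 of 44 in P195A/+ (4.55%, 1.26 to 15.1%), 3 of 41 in P195A/- (7.32%, 2.52 to 19.4%) and 1 of 35 in wild type (2.86%, 0.506 to 14.5%). With a minimum of 5 reads in place of 10, at which the site could be tested, its unadjusted p in P195A/P195A against wild type was 0.0225 and its adjusted p 0.844 (edgeR). Intervals cover counting error only, since reads are not independent molecules.

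**Figure D4:**
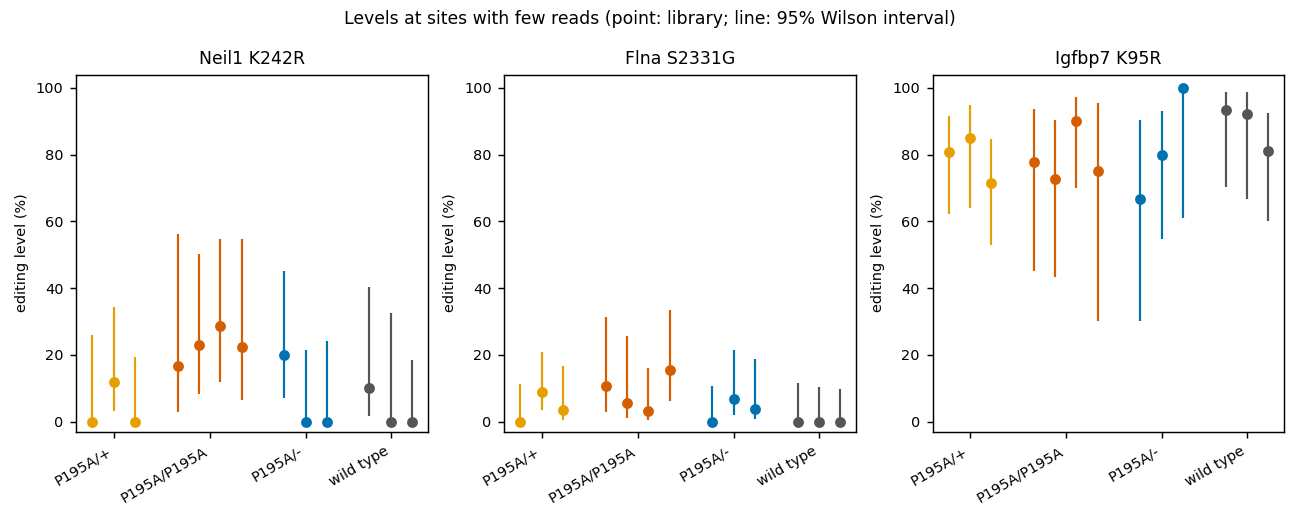
Editing level in percent (y axis) at Neil1 K242R, Flna S2331G and Igfbp7 K95R in each library, by genotype (x axis), with 95% Wilson intervals as lines. Flna S2331G is at 0% in the 3 wild-type libraries and at 3.23 to 15.4% in the 4 P195A/P195A libraries, with wide intervals.

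At the RNA level none of the 9 genes passed in any comparison (edgeR quasi-likelihood test over 19962 genes, adjusted p under 0.05), and DESeq2 and limma-voom called 0 of the 9 as well. All 9 passed the filter on low counts. In P195A/+ against wild type 0 of 9 were called, beside 0.0100% of all genes, with 2 at an unadjusted p under 0.05 (Cyfip2, Igfbp7), beside 4.48%. In P195A/P195A against wild type 0 of 9 were called, beside 0.0501%, with 1 such gene (Cyfip2), beside 5.89%. In P195A/- against wild type 0 of 9 were called, beside 0.0351%, with 1 (Igfbp7), beside 10.6%. In P195A/- against P195A/P195A 0 of 9 were called, beside 0.0401%, with 2 (Igfbp7, Neil1), beside 6.82%. In P195A/P195A against wild type no gene of the 9 had groups that did not overlap, beside 2.69% of genes higher and 3.79% lower. The median log2 fold changes of the 9 genes were 0.03, 0.06, -0.01 and -0.05 in this order, and those of all genes 0.00, 0.01, 0.02 and 0.00. In a simulation of P195A/- against wild type 59.3% of 59 genes raised 2-fold and 100% of 46 genes raised 4-fold were recovered.

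Cyfip2 had 689, 634 and 717 CPM in P195A/+ brains, 690, 597, 801 and 724 CPM in P195A/P195A brains, 699, 730 and 806 CPM in P195A/- brains, and 787, 795 and 824 CPM in wild-type brains. All P195A/+ animals were below all wild-type animals, as in 6.32% of genes in that comparison, and the other genotypes overlapped wild type. The log2 fold change was -0.24 in P195A/+ (SE 0.09, unadjusted p = 0.0199, adjusted p = 0.999, edgeR) and -0.19 in P195A/P195A (SE 0.09, adjusted p = 0.83). The summed neuronal markers of P195A/+ lay below those of wild type in all animals as well (given above), and so did 6 olfactory bulb markers, with sums of 27.7 to 32.1 CPM in P195A/+ and 37.1 to 52.6 CPM in wild type; their part in the Cyfip2 value was not tested. In whole brain, fewer cells of a type and less RNA per cell cannot be told apart.

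Igfbp7 had 4.48, 3.82 and 4.99 CPM in P195A/+, 3.05, 2.77, 3.59 and 3.18 CPM in P195A/P195A, 3.73, 4.70 and 4.50 CPM in P195A/-, and 3.26, 2.79 and 2.57 CPM in wild type. The P195A/+ animals were above all wild-type animals, as in 5.62% of genes, and the P195A/- animals above all wild-type animals, as in 9.59%, and above all P195A/P195A animals, as in 2.64%. The log2 fold changes were 0.63 in P195A/+ (SE 0.22, unadjusted p = 0.0120, adjusted p = 0.999) and 0.59 in P195A/- (SE 0.22, unadjusted p = 0.0178, adjusted p = 0.354) against wild type, and 0.45 in P195A/- against P195A/P195A (SE 0.21, adjusted p = 0.721, edgeR). Summed markers of other cell types are given beside these values. The 5 oligodendrocyte markers summed to 5352 to 6570 CPM in P195A/+, 4944 to 5552 CPM in P195A/P195A, 5924 to 6208 CPM in P195A/- and 4772 to 5516 CPM in wild type. The 5 markers of pericytes and smooth muscle summed to 143 to 174 CPM in P195A/+, 141 to 163 CPM in P195A/P195A, 153 to 164 CPM in P195A/- and 128 to 145 CPM in wild type, and the 5 endothelial markers to 207 to 225, 171 to 224, 204 to 210 and 194 to 212 CPM in the same order. No marker of these lists was at 0, and their part in the Igfbp7 values was not tested.

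Neil1 had 2.24, 3.00 and 3.57 CPM in P195A/+, 3.35, 4.23, 3.49 and 3.60 CPM in P195A/P195A, 2.68, 2.44 and 2.39 CPM in P195A/-, and 2.42, 2.84 and 4.07 CPM in wild type. Every P195A/- animal was below every P195A/P195A animal, as in 4.00% of genes (log2 fold change -0.55, SE 0.25, unadjusted p = 0.0424, adjusted p = 0.717, edgeR), and both overlapped wild type. Azin1 averaged 311 ± 42.7 CPM in P195A/+, 296 ± 22.4 CPM in P195A/P195A, 252 ± 43.2 CPM in P195A/- and 299 ± 23.6 CPM in wild type, with a log2 fold change of -0.25 in P195A/- against wild type (SE 0.12, adjusted p = 0.487, edgeR). The animals of these genotypes overlapped.

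Cadps, Copa, Son, Blcap and Flna stayed within the spread of the animals. Cadps averaged 474 ± 14.6 CPM in P195A/+, 475 ± 19.6 CPM in P195A/P195A, 461 ± 19.6 CPM in P195A/- and 464 ± 23.2 CPM in wild type, and Copa 291 ± 21.8, 295 ± 13.04, 285 ± 6.04 and 296.6 ± 6.84 CPM in the same order. Son averaged 582 ± 37.0 CPM in P195A/+, 616 ± 38.3 CPM in P195A/P195A, 584 ± 45.4 CPM in P195A/- and 570 ± 24.0 CPM in wild type. Blcap averaged 90.5 ± 5.91 CPM in P195A/+, 91.2 ± 2.12 CPM in P195A/P195A, 92.4 ± 9.57 CPM in P195A/- and 87.5 ± 2.01 CPM in wild type. Flna averaged 120 ± 25.0 CPM in P195A/+, 109 ± 10.96 CPM in P195A/P195A, 101 ± 21.9 CPM in P195A/- and 98.9 ± 13.4 CPM in wild type. The Blcap transcript had a log2 fold change of 0.06 (SE 0.08) in P195A/P195A against wild type.

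**Figure D5:**
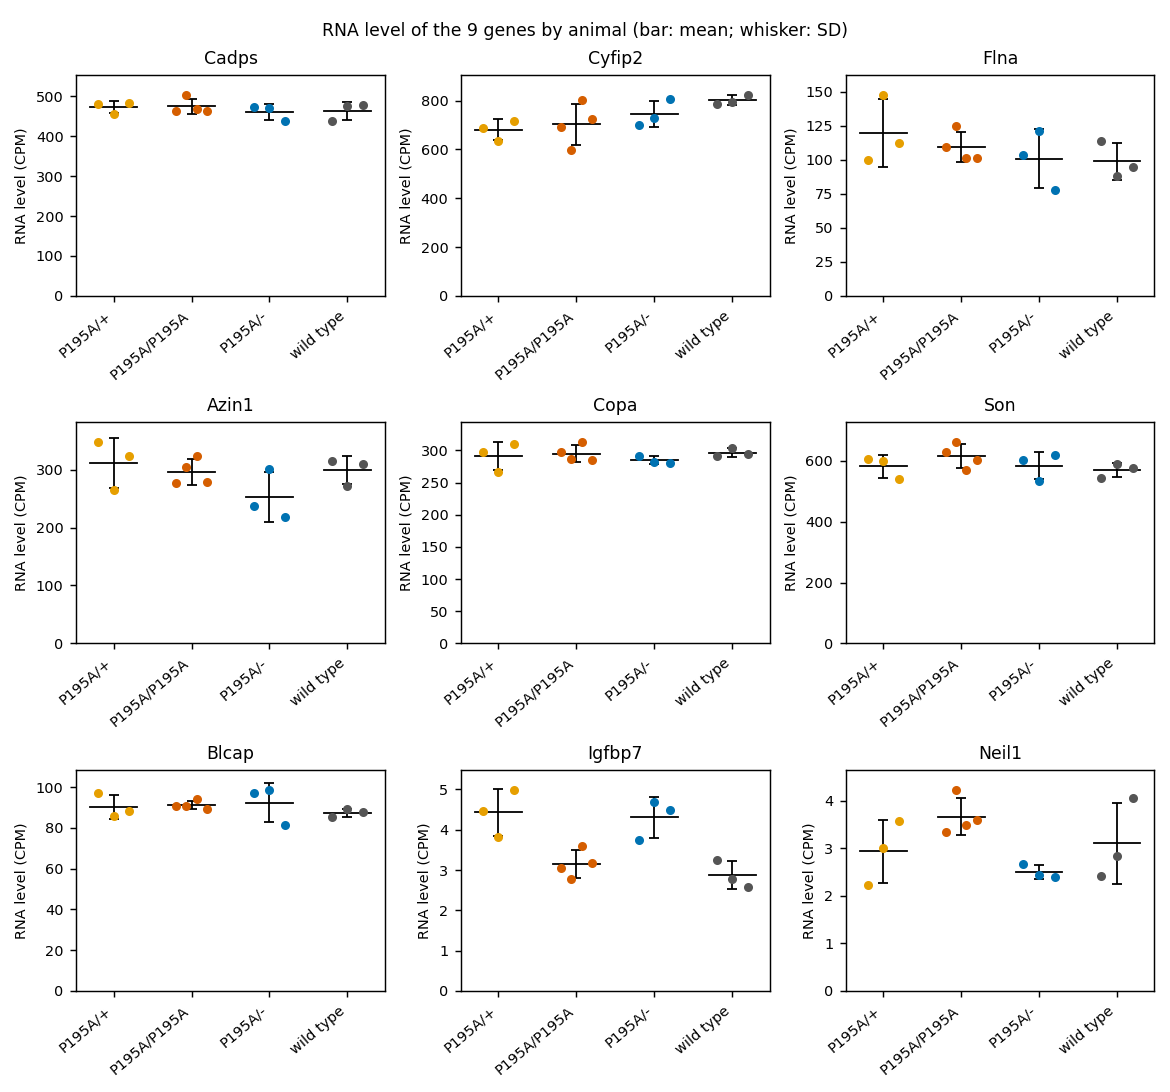
RNA level in CPM (y axis, a scale for each gene, from 0) of the 9 genes in each animal, by genotype (x axis); points are animals, bars the mean and whiskers the SD. Igfbp7 is at 3.82 to 4.99 CPM in P195A/+ and 3.73 to 4.70 CPM in P195A/-, above the 2.57 to 3.26 CPM of wild type.

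Of the editing enzymes, Adar itself differed. It averaged 240 ± 6.63 CPM in P195A/+, 323 ± 28.6 CPM in P195A/P195A, 201 ± 4.28 CPM in P195A/- and 180 ± 13.3 CPM in wild type, and it rose in P195A/P195A against wild type (log2 fold change 0.84, SE 0.08, adjusted p = 5.91e-05) and fell in P195A/- against P195A/P195A (-0.68, SE 0.08, adjusted p = 0.000773, edgeR). Of the 3 editing enzymes 1 rose in the first of these comparisons and 1 fell in the second, and 0 of 3 passed in P195A/+ or P195A/- against wild type. The mean editing level over the 9722 sites tested in all libraries was 17.0 to 17.7% in P195A/+, 16.6 to 17.1% in P195A/P195A, 15.7 to 16.7% in P195A/- and 15.1 to 16.3% in wild type. All P195A/+ and P195A/P195A libraries thus lay above the wild-type libraries in mean level, and the part of this shift, or of the Adar level, in the values of single sites was not tested.

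Partners of the 9 genes gave no calls. Of the 8 WAVE complex genes, 9 genes of vesicle priming, 2 other filamins, 10 measured polyamine genes, 9 COPI coat genes, 9 DNA glycosylases, 6 measured IGF-binding proteins and 7 nuclear speckle genes, 0 passed in any of the 4 comparisons. The polyamine enzyme Amd1, S-adenosylmethionine decarboxylase, had the smallest p of these lists: 201 ± 4.64 CPM in P195A/-, against 261 ± 17.4 CPM in wild type (log2 fold change -0.38, SE 0.08, unadjusted p = 0.000188, adjusted p = 0.169, edgeR). The WAVE subunit Nckap1 had a log2 fold change of -0.22 and the uracil glycosylase Ung one of -0.73 in P195A/- against wild type (adjusted p = 0.295 and 0.442). The coat subunit Copg2 had -0.23 in the same comparison (adjusted p = 0.479). The IGF-binding protein gene Igfbp4 had -0.34 in P195A/P195A against wild type (adjusted p = 0.83). The filamin Flnc had 0.99 and the splicing factor Srsf3 -0.25 in P195A/- against P195A/P195A (adjusted p = 0.607 and 0.542, edgeR). Flnc was uneven among P195A/- animals, at 3.44 to 11.5 CPM, and overlapped the 3.42 to 3.83 CPM of P195A/P195A (SE 0.33).

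Over the 13 libraries, the gene whose log2 CPM followed each of the 9 most closely, among 17339 genes of at least 1 CPM on average, was Cldn11 for Igfbp7 (Pearson r = 0.94), Sez6l2 for Cyfip2 (0.95), Cdk5rap1 for Cadps (0.90), Tsku for Copa (0.91), Tmem18 for Azin1 (0.91), AC154492.2 for Son (0.89), Erc2 for Flna (0.87), Ctsk for Blcap (0.82) and Fbxw4 for Neil1 (0.81). These are the highest of many coefficients over libraries that share genotypes, and are given as descriptions. Cldn11, an oligodendrocyte tight junction gene, is 1 of the 5 oligodendrocyte markers summed above.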

How the data were processed

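Groups, replicate numbers, sex and age of the 13 mice came from the labels. The authors deposited estimated counts per gene (expected counts). Their processing notes name fastp 0.19.5, Salmon and edgeR without a role, and the build mm10, per the submitters' processing notes. The authors also deposited A, C, G and T read counts at listed editing sites, with a score per site that entered no test. These came from JACUSA2 2.0.0-RC5 with a minimum coverage of 3 and a depth limit of 3000, per the file headers. The read aligner was not given in the sources used here, nor was the gene annotation.

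Here the estimated counts were rounded, and all 13 libraries were put in 1 edgeR 4.0.16 model (R 4.3.3; quasi-likelihood, TMM, filterByExpr); CPM are TMM-scaled. For editing, each library contributed its edited and its unedited reads as separate columns to an edgeR model of each comparison table, after requiring 10 reads in each library and a pooled level of 1 to 99%. Adjusted p-values (Benjamini-Hochberg) cover all genes or sites tested. Both models were tested on simulated data. DESeq2 1.42.0 and limma 3.58.1 were alternatives. Codons and sequences came from GENCODE M21 (GRCm38). Median depth per library was 19 to 37 reads over the 9722 sites that passed the read and level filter in all libraries, and so is that of sites kept for their depth. CPM are not divided by length, so levels of different genes were not compared.

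Members, gene lists and tests were chosen with earlier results of these data known. Named are all 9 genes, every tested site, the closest gene to each, and of each related list the genes that passed or the 1 with the smallest p. For the vesicle priming list that gene is not reported here. Sites singled out by non-overlapping groups, and sites with too few reads for the test, were chosen after their values were seen, as was the test with 3 degrees of freedom of any difference among the genotypes.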

Additional observations from a re-analysis of the deposited data

Results flagged for a closer look

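In the P195A/P195A group of 4, the highest or lowest animal was compared with the rest for the RNA level of the 9 genes and the editing level of the tested sites, 35 sets of values in all, and 2 stood apart; chance alone gives about 1 in 20. Cadps RNA was 504 CPM in P195A/P195A replicate 2, the shallowest library, and 464 to 468 CPM in the other 3, a gap of 0.903 of the range. Editing at the synonymous site of Son codon 573 was 3.83% (7 of 183 reads) in P195A/P195A replicate 3 and at most 0.599% in the others, a gap of 0.844 of the range.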

How the results depend on the processing

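The number of the 9 genes and of their coding sites that passed was 0 under every alternative tried. For RNA these were DESeq2 size factors, DESeq2, limma-voom, no filter on low counts, only the genotypes compared, females only, sex as covariate, the replicate block and leaving out each library; for editing, read minimums of 5 and 20, no filter on level, limma, all genotypes in 1 model, sex as covariate, the replicate block and leaving out each library. The test of any difference among the 4 genotypes also called 0 of both, with smallest adjusted p of 0.490 (Igfbp7 RNA) and 0.499 (Son codon 407). The smallest adjusted p of any alternative was 0.196 for RNA (Cyfip2 in P195A/P195A against wild type, without P195A/P195A replicate 3) and 0.216 for editing (Blcap Q5R in P195A/P195A against wild type, at least 20 reads). Of 522 alternative RNA values 32 changed sign, and of 1262 editing values 72. All but 1 of them belong to values within 1 standard error of 0, which are read as having no direction. The exception is Azin1 S367G in P195A/P195A against wild type, whose log2 odds ratio of 0.60 became -0.0776 without wild type replicate 3, the animal with no edited read, and ran up to 1.33 without wild type replicate 2. Without P195A/P195A replicate 2, Cyfip2 RNA in P195A/P195A against wild type had a log2 fold change of -0.12 in place of -0.19, and with females only -0.10. Libraries with the same replicate number had deviations correlated at -0.07 to 0.23 for RNA and -0.03 to 0.02 for editing. Such values cannot settle whether the numbers pair the animals. With the replicate block 0 members passed. In P195A/- against wild type 6 of 6 libraries correlated best with their own number for RNA. In each other comparison 2 of 6 did. The 6 matches are a hint from the data only, since they share libraries and their r was only 0.035 to 0.045. Replicate 3 is also the only male in P195A/- and in wild type. Against wild type, calls over all genes numbered 0 to 18 for P195A/+, 5 to 16 for P195A/P195A and 2 to 164 for P195A/-, and against P195A/P195A they numbered 5 to 49 for P195A/-; the reported model gave 2, 10, 7 and 8. Counts over all sites ran from 0 to 4, 0 to 43, 0 to 1 and 0 to 25 in the same order, where the reported model gave 2, 24, 0 and 10. Depth limits the thinly read sites: 28 to 63 reads per library at Blcap Q5R and 6 to 17 at Neil1 K242R cannot resolve differences of a few percentage points.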

Other observations

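Outside the coding sequence the same genes held 50 listed sites on their strand: 34 in introns of Cadps, 6 in introns and 1 in the 5′ UTR of Blcap, 5 in introns of Flna, 3 in introns of Cyfip2 and 1 in an intron of Copa. Against wild type 18 of these were tested for P195A/+, 17 for P195A/P195A and 18 for P195A/-, and 16 were tested for P195A/- against P195A/P195A; 0 passed in each (edgeR), with 0 at an unadjusted p under 0.05. A site in an intron of Flna (chromosome X position 74226650) had pooled levels of 88.6% in P195A/+, 87.0% in P195A/P195A, 85.1% in P195A/- and 90.3% in wild type. Its neighbour at position 74226649 was at 38.1%, 32.3%, 30.9% and 37.3% in the same order. In an intron of Cyfip2 (chromosome 11 position 46271860) the levels were 56.3% in P195A/+, 54.1% in P195A/P195A, 44.6% in P195A/- and 43.8% in wild type. In an intron of Blcap (chromosome 2 position 157558645) they were 54.7%, 52.0%, 44.4% and 51.3% in the same order. In an intron of Cadps (chromosome 14 position 12475056) they were 63.2%, 49.0%, 57.8% and 54.1% in that order.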
